A study of Homo sapiens with 8 samples.

Results

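The 10 genes described here are noncoding snoRNA host genes, GAS5, ZFAS1, SNHG1, SNHG5, SNHG6, SNHG7, SNHG8, SNHG12, SNHG15 and SNHG16, chosen by name from the 63677 genes of the count tables, where each symbol belonged to 1 gene ID. RNA-seq counts were available for 8 libraries of multiple myeloma cell lines, with 2 libraries in each of 4 groups: JJN3 given DMSO, JJN3 given 50 nM THZ1, and libraries labelled H929 given DMSO or 50 nM THZ1, all collected after 24 h. THZ1 is a covalent inhibitor of CDK7, a kinase that phosphorylates RNA polymerase II, and DMSO is its solvent. Per the study's list of lines, JJN3 carries a translocation that places MAF under immunoglobulin control, and H929 one that involves FGFR3 and MMSET (WHSC1). The paper also describes aberrant MAF activation in H929, and lower MAF mRNA after THZ1 in both lines by qRT-PCR. No label says that the libraries of a group came from separate cultures, so p-values measure only the spread between these libraries, which may be technical.

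Small nucleolar RNAs (snoRNAs) guide the chemical modification of ribosomal RNA. Those of the C/D class direct methylation of ribose and those of the H/ACA class direct pseudouridylation. In humans most of them are cut out of introns of a host gene, so 1 transcript gives both a spliced host RNA and its snoRNAs. The spliced RNAs of these hosts encode no known protein, many start with a run of pyrimidines (C and T) like the mRNAs of ribosomal proteins, and several, GAS5 among them, are known substrates of nonsense-mediated decay, which destroys RNAs with an early stop codon in the cytoplasm. By the RefSeq gene names (GRCh38.p14), the 10 genes held 36 named snoRNAs, 28 of the C/D and 8 of the H/ACA class. GAS5 held 11, SNHG1 8 and SNHG12 4, ZFAS1 and SNHG16 held 3 each, SNHG5 and SNHG7 held 2 each, and SNHG6, SNHG8 and SNHG15 held 1 each. All the named snoRNAs in SNHG7, SNHG8 and SNHG15, and 3 of the 4 in SNHG12, were of the H/ACA class. Those in ZFAS1, SNHG1, SNHG5, SNHG6 and SNHG16 were of the C/D class, as were all but SNORA103 in GAS5.

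The bases around the RefSeq start sites are shown because a pyrimidine run at the start is the feature by which such hosts are often grouped. RefSeq gave a promoter for 8 of the 10 genes. Each line below is 30 bases in the direction of transcription, 10 before the start site and 20 from it, with the longest run of C and T in capitals.
GAS5, chr1:173869026-173869055, minus strand: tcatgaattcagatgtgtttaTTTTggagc
ZFAS1, chr20:49278632-49278661, plus strand: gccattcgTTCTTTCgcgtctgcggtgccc
SNHG1, chr11:62855866-62855895, minus strand: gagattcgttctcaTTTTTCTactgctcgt
SNHG5, chr6:85678714-85678743, minus strand: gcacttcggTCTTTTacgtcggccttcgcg
SNHG7, chr9:136728165-136728194, minus strand: CCTTCTCgtcctctgcgtgcgccggaggct
SNHG8, chr4:118278752-118278781, plus strand: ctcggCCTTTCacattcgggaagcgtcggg
SNHG12, chr1:28581854-28581883, minus strand: gcttcagcgCCCTTTCTCCCCgccgcattc
SNHG16, chr17:76557754-76557783, plus strand: gggcggtctcgcgTTCTTTTCgaggtcggc

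These coordinates are of GRCh38.p14, while the counts were made on hg19. The longest run was 12 bases in SNHG12, 8 in SNHG16, 7 in ZFAS1, SNHG1 and SNHG7, 6 in SNHG5 and SNHG8, and 4 in GAS5. A run of at least 8 letters of only C or T, searched on the transcribed strand alone, was held by 2 of these 8 windows, by 12.7% of all 35116 RefSeq windows of that length, and by 56.0% of the windows of ribosomal protein genes with a snoRNA inside the gene. The runs of ZFAS1, SNHG5, SNHG8 and SNHG12 covered the start site as RefSeq places it. These start sites were not compared with other annotation or with the reads. A short run, as in GAS5, thus does not show that the RNA lacks a pyrimidine start.

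Each library held 17476443 to 19194371 counts. The 8 plasma cell markers (SDC1, CD38, TNFRSF17, XBP1, PRDM1, IRF4, MZB1 and SLAMF7) were all at or above 1 CPM (read counts scaled to a fixed library total) in 7 libraries, and 7 of 8 in 1 of the libraries labelled H929 DMSO, where SLAMF7 had 2 counts. They summed to 1423 to 7024 CPM per library, while 9 markers of B cells, T cells and myeloid cells summed to 2.25 to 36.2 CPM. CD3E, a T cell marker, stood at 640 and 650 counts with THZ1 under the H929 label, against 15 and 26 with DMSO, and at 32 to 75 in JJN3. The B cell marker MS4A1 was at 48 and 72 counts in JJN3 DMSO and 28 and 16 in JJN3 THZ1, and had at most 4 elsewhere. LYZ was at 0 or 1 count and CD3D at 0 to 4 in every library. The part of these markers in the results was not tested. The libraries that share the H929 label stood apart from each other. Variable genes of the kappa light chain had 3 and 597 counts, and those of lambda 31162 and 28736, in the libraries labelled H929 DMSO, against 31511 and 29325 for kappa and 67 and 62 for lambda in those labelled H929 THZ1. FGFR3 had 45 and 285 counts in the former and 14117 and 13411 in the latter, and MAF 18006 and 16310 against 2729 and 2942. A plasma cell clone uses 1 light chain, so in every comparison of these libraries the identity of the cells and the treatment cannot be told apart. JJN3 libraries were kappa in both groups, and correlated between DMSO and THZ1 at 0.952 to 0.961 (Pearson's r of log2 CPM across genes), against 0.698 to 0.755 between the groups labelled H929. The JJN3 comparison below uses none of the H929 libraries.

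In JJN3, 5 of the 10 host genes fell with THZ1 (SNHG16, SNHG7, SNHG12, SNHG8 and GAS5) and 1 rose (SNHG6). A gene was called changed when its adjusted p was under 0.05 and its log2 fold change beyond 0.5 (edgeR's quasi-likelihood test, Benjamini-Hochberg adjustment over all genes tested). By this rule 21.3% of the 13984 genes tested were lower and 20.6% were higher. The median log2 fold change of the 10 genes was -0.63, beside -0.000361 over all genes tested. All 10 passed the filter on low counts, with 131 to 3606 counts per library. CPM values below are scaled by TMM over the 8 libraries, so they are relative to the other RNAs of a library. A change in the total RNA of a cell would not show in these values or in the fold changes. A gene called higher or not called may thus still have fallen per cell. Fewer cells with a given RNA also cannot be told apart from less of it per cell.

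**Figure D1:**
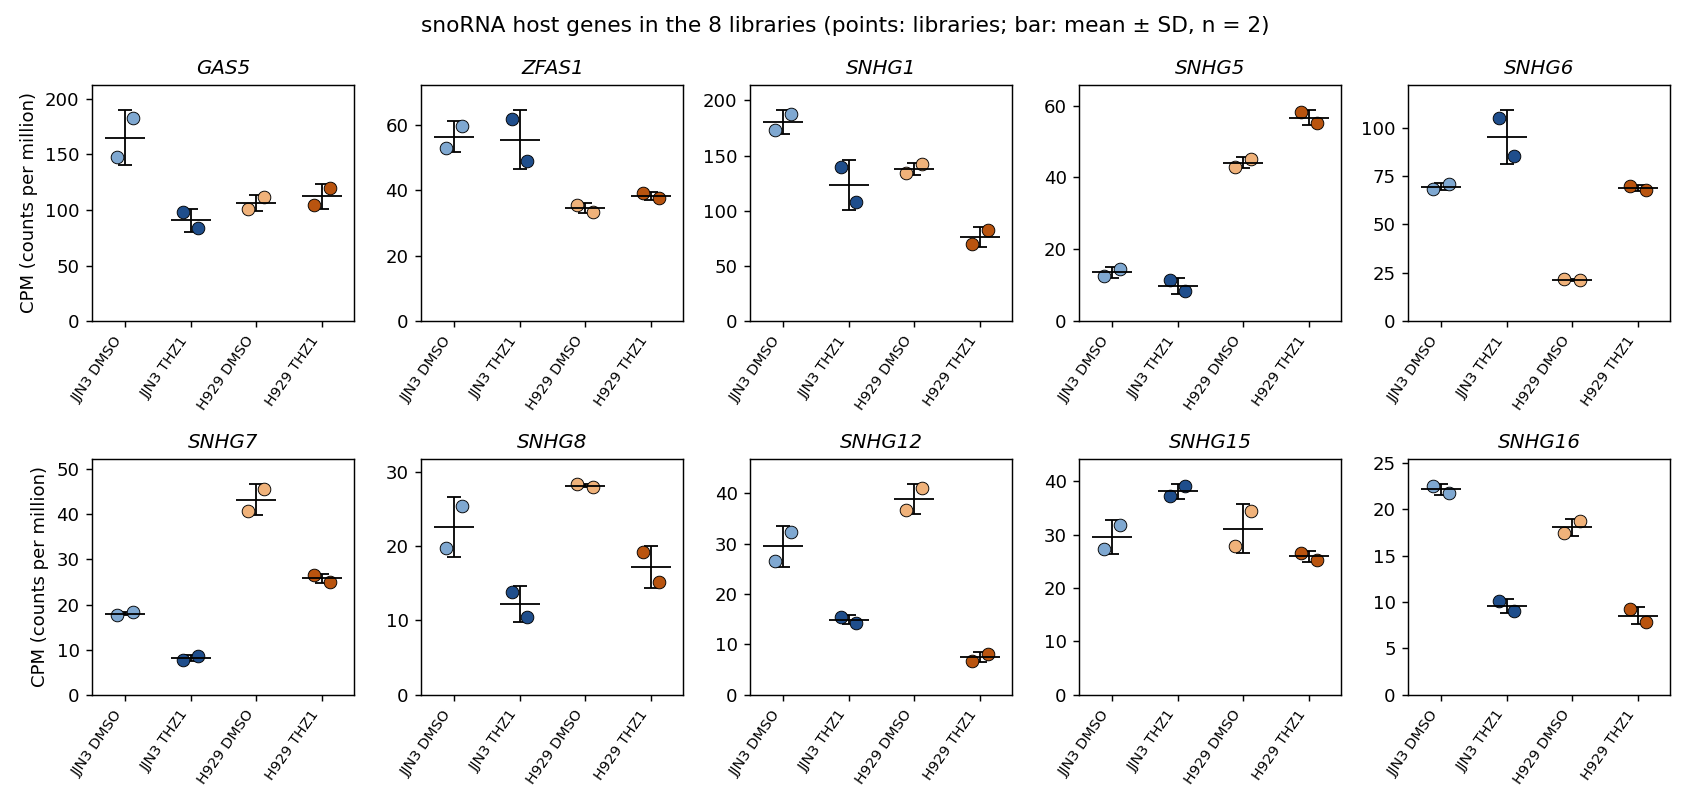
Level of each snoRNA host gene in CPM (vertical axis, from 0) in the 4 groups, with a point for each library and a bar for the mean ± SD of 2 libraries. SNHG7, SNHG8, SNHG12 and SNHG16 were lower with THZ1 under both line labels, SNHG6 was higher, and SNHG5 was at 8.29 to 14.6 CPM in JJN3 against 43.0 to 58.1 CPM in the libraries labelled H929.

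SNHG16 lies on chr17:74553809-74667067, plus strand (hg19, as are the gene positions that follow), and carries the C/D snoRNAs SNORD1A, SNORD1B and SNORD1C. In JJN3 it was at 22.5 and 21.7 CPM with DMSO and at 10.1 and 9.06 CPM with THZ1. The treated libraries lay below the controls with a wide gap, and the log2 fold change was -1.14 ± 0.126 (SE; edgeR adjusted p = 2.24e-05). With the H929 label it was at 17.4 and 18.7 CPM with DMSO and 9.21 and 7.87 CPM with THZ1, a log2 fold change of -1.10 ± 0.122 (edgeR adjusted p = 5.22e-07). The 2 changes differed by -0.05 ± 0.175 (SE) on the log2 scale, which did not pass the interaction test (edgeR adjusted p = 0.851).

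SNHG7, on chr9:139615818-139622636, minus strand, carries the H/ACA snoRNAs SNORA17A and SNORA17B. It was at 17.7 and 18.2 CPM with DMSO and 7.77 and 8.67 CPM with THZ1 in JJN3, where it fell by 1.05 ± 0.133 on the log2 scale (edgeR adjusted p = 5.57e-05). The libraries labelled H929 had 40.8 and 45.7 CPM with DMSO and 26.6 and 25.1 CPM with THZ1. The groups did not overlap there either, and the log2 fold change was -0.76 ± 0.0845 (edgeR adjusted p = 4.93e-07).

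SNHG8, on chr4:119199858-119206471, plus strand, carries SNORA24. Its JJN3 libraries were at 19.8 and 25.4 CPM with DMSO and 13.9 and 10.5 CPM with THZ1. The controls differed from each other nearly as much as the lower of them from the treated libraries, which were all below, and the log2 fold change was -0.81 ± 0.165 (edgeR adjusted p = 0.00142). Its H929-labelled values went from 28.3 and 28.0 CPM to 19.2 and 15.2 CPM, a log2 fold change of -0.73 ± 0.106 (edgeR adjusted p = 1.02e-05).

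SNHG12, on chr1:28905050-28909644, minus strand, carries SNORD99 and the H/ACA snoRNAs SNORA61, SNORA44 and SNORA16A. In JJN3 it was at 26.7 and 32.3 CPM with DMSO and 15.5 and 14.3 CPM with THZ1, a log2 fold change of -0.91 ± 0.128 (edgeR adjusted p = 0.000122). In the libraries labelled H929 it was at 36.8 and 41.0 CPM with DMSO and 6.76 and 8.19 CPM with THZ1. No other of the 10 genes moved as far down under that label, with a log2 fold change of -2.39 ± 0.114 (edgeR adjusted p = 1.42e-11).

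GAS5, on chr1:173827697-173838020, minus strand, is the host of SNORD44, SNORD47 and SNORD74 to SNORD81 and is named for its rise in growth-arrested cells. It was at 148 and 183 CPM with DMSO and 98.0 and 83.5 CPM with THZ1 in JJN3, with a log2 fold change of -0.79 ± 0.115 (edgeR adjusted p = 0.000153). The groups labelled H929 overlapped, at 101 and 111 CPM with DMSO and 104 and 120 CPM with THZ1. The log2 fold change there was 0.06 ± 0.0723 (edgeR adjusted p = 0.431).

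SNHG6, on chr8:67832796-67838633, minus strand, carries SNORD87 and was higher with THZ1 under both labels. In JJN3 it was at 68.2 and 70.7 CPM with DMSO and 105 and 85.5 CPM with THZ1, a log2 fold change of 0.53 ± 0.103 (edgeR adjusted p = 0.00103). That value lies just past the limit of 0.5, and the call was lost with scaling by total counts (0.43), without the filter on low counts (0.49), without JJN3 DMSO replicate 1 (0.49) and without JJN3 THZ1 replicate 1 (0.37). The H929-labelled libraries were at 21.8 and 21.1 CPM with DMSO and 69.8 and 67.8 CPM with THZ1, a log2 fold change of 1.67 ± 0.0742 (edgeR adjusted p = 6.24e-12). The libraries labelled H929 THZ1 lay at the level of JJN3 DMSO, and those labelled H929 DMSO were the low ones.

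SNHG1, on chr11:62619450-62623425, minus strand, carries 8 C/D snoRNAs, SNORD22 and SNORD25 to SNORD31. In JJN3 it was at 173 and 188 CPM with DMSO and 139 and 107 CPM with THZ1. All treated libraries were below the controls, but the log2 fold change of -0.47 ± 0.115 (edgeR adjusted p = 0.00459) was inside the limit of 0.5. It was called without JJN3 DMSO replicate 1 (-0.55), without JJN3 THZ1 replicate 1 (-0.68), with total counts (-0.58) and without the filter on low counts (-0.51). Without JJN3 THZ1 replicate 2 it was -0.29. The H929-labelled values went from 134 and 142 CPM to 69.4 and 82.2 CPM, a log2 fold change of -0.88 ± 0.0729 (edgeR adjusted p = 1.41e-08).

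SNHG15, on chr7:45022618-45026560, minus strand, carries SNORA9. In JJN3 it was at 27.3 and 31.8 CPM with DMSO and 37.2 and 39.1 CPM with THZ1. Its log2 fold change of 0.44 ± 0.104 (edgeR adjusted p = 0.00361) was under the limit, and it was called higher without JJN3 DMSO replicate 2 (0.55). Without JJN3 DMSO replicate 1 it was 0.32 and the adjusted p was not passed (edgeR adjusted p = 0.0914). Libraries labelled H929 were at 27.9 and 34.4 CPM with DMSO and 26.7 and 25.3 CPM with THZ1, a log2 fold change of -0.28 ± 0.100 (edgeR adjusted p = 0.0187). It was -0.43 without H929 DMSO replicate 1 and -0.10 without H929 DMSO replicate 2 (edgeR adjusted p = 0.355), and the adjusted p was also missed without H929 THZ1 replicate 2 (-0.24, edgeR adjusted p = 0.106).

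SNHG5, on chr6:86360209-86388650, minus strand, carries SNORD50A and SNORD50B. In JJN3 it was at 12.5 and 14.6 CPM with DMSO and 11.4 and 8.29 CPM with THZ1, a log2 fold change of -0.38 ± 0.173 (edgeR adjusted p = 0.0762). Without JJN3 THZ1 replicate 1 it was called lower (-0.64), and without replicate 2 the value was -0.16. The libraries labelled H929 were at 43.0 and 45.2 CPM with DMSO and 58.1 and 55.2 CPM with THZ1. The groups did not overlap there, but the log2 fold change of 0.35 ± 0.0695 (edgeR adjusted p = 0.000269) was under the limit.

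ZFAS1, on chr20:47894715-47916137, plus strand, carries SNORD12, SNORD12B and SNORD12C. It was called under neither label. In JJN3 the libraries overlapped, at 53.0 and 59.7 CPM with DMSO and 61.7 and 48.9 CPM with THZ1, and the log2 fold change was 0.05 ± 0.116 (edgeR adjusted p = 0.737). Libraries labelled H929 had it at 35.5 and 33.4 CPM with DMSO and 39.1 and 37.4 CPM with THZ1, a log2 fold change of 0.13 ± 0.0768 (edgeR adjusted p = 0.116).

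In the libraries labelled H929, 5 of the 10 genes were lower with THZ1 (SNHG12, SNHG16, SNHG1, SNHG7 and SNHG8) and 1 was higher (SNHG6). The background was 32.6% of 14863 genes lower and 33.1% higher, and the median of the 10 genes was -0.50, beside 0.01 over all genes. Under both labels 4 of the 10 were lower (SNHG7, SNHG8, SNHG12 and SNHG16), beside 10.1% of the 12787 genes tested in both, and 1 was higher (SNHG6), beside 8.37%. The groups labelled H929 differed in light chain, FGFR3 and MAF. A call under both labels can therefore not be taken as a repeat of the response to THZ1. The host genes of H/ACA snoRNAs alone were split, as SNHG7 and SNHG8 were lower under both labels and SNHG15 was called under neither. The hosts of C/D snoRNAs alone were split as well, from SNHG16 at -1.14 to SNHG6 at 0.53 in JJN3.

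**Figure D2:**
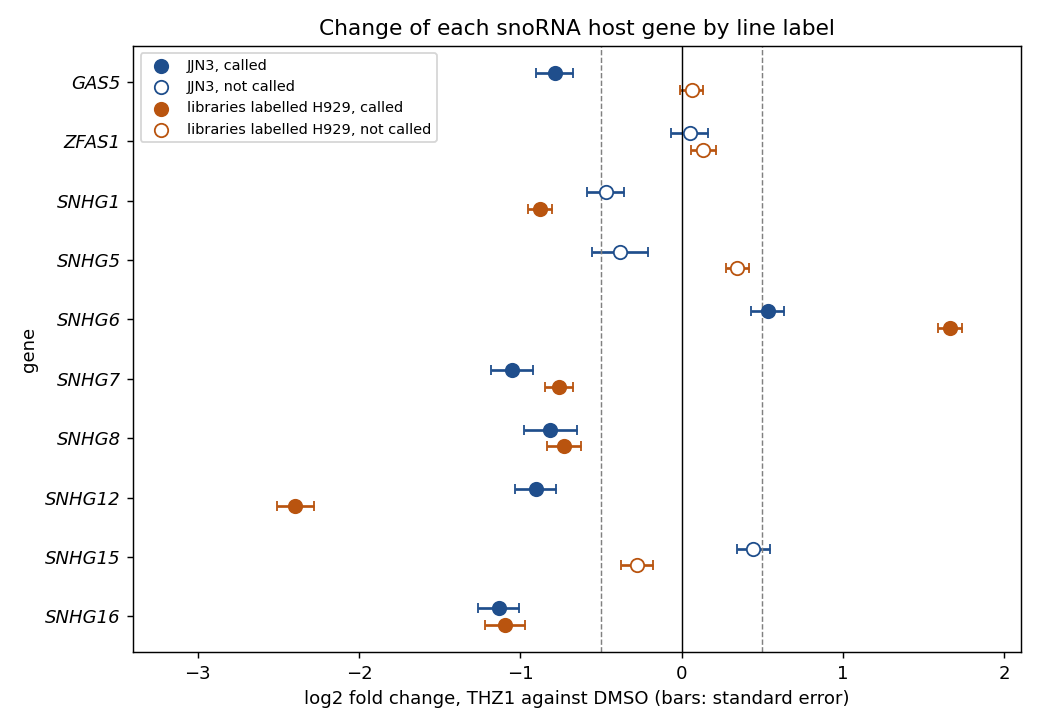
Log2 fold change of THZ1 against DMSO (horizontal axis) with its standard error for each gene, in JJN3 (blue) and in the libraries labelled H929 (orange). Filled points were called, and dashed lines mark the limits of -0.5 and 0.5. SNHG12 was at -0.91 in JJN3 and -2.39 under the H929 label, SNHG6 at 0.53 and 1.67, and GAS5 at -0.79 and 0.06.

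The interaction of line label and treatment, fitted over all 8 libraries, asks whether the change in JJN3 differed from that under the H929 label. It was called for 5 of the 10 genes, beside 53.7% of the 16122 genes tested, so the share of host genes was close to that of all genes. The JJN3 change minus the H929 label change was -1.14 ± 0.134 for SNHG6, -0.86 ± 0.152 for GAS5 and -0.74 ± 0.175 for SNHG5. It was 1.48 ± 0.182 for SNHG12 and 0.71 ± 0.153 for SNHG15. The edgeR adjusted p of these 5 genes ran from 1.71e-06 for SNHG6 to 0.00161 for SNHG5. SNHG1 had 0.40 ± 0.153 (edgeR adjusted p = 0.0335), under the limit. Leaving out 1 library moved it from 0.17 (without JJN3 THZ1 replicate 1, edgeR adjusted p = 0.204) to 0.56 (without JJN3 THZ1 replicate 2), and it was called in the latter case and without H929 THZ1 replicate 2 (0.50). SNHG7, SNHG8, SNHG16 and ZFAS1 had values of -0.30 ± 0.151, -0.10 ± 0.211, -0.05 ± 0.175 and -0.10 ± 0.149, and the test of the difference was not passed for any of the 4 (edgeR adjusted p = 0.0959 to 0.851).

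Among the DMSO libraries, JJN3 differed from the libraries labelled H929 DMSO in 5 of the 10 genes, beside 61.5% of the 16122 genes tested. This comparison shares its DMSO libraries with those above. SNHG6 was higher in JJN3 by 1.66 ± 0.100 on the log2 scale, ZFAS1 by 0.68 ± 0.105 and GAS5 by 0.60 ± 0.106. The GAS5 call was lost without JJN3 DMSO replicate 2 (0.45). SNHG5 was lower in JJN3, with a log2 difference of -1.74 ± 0.119, and SNHG7 with -1.30 ± 0.0968. For these 5 genes the edgeR adjusted p was 8.43e-05 or lower.

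The order of the 4 groups differed from gene to gene. SNHG5 ranged over 5.74-fold between its highest mean, 56.7 ± 2.05 CPM (SD, n = 2) in the libraries labelled H929 THZ1, and its lowest, 9.87 ± 2.23 CPM in JJN3 THZ1. SNHG7 ranged over 5.26-fold and was highest in H929 DMSO at 43.2 ± 3.47 CPM, followed by H929 THZ1, JJN3 DMSO and JJN3 THZ1, and each neighbouring pair of groups was called different. SNHG12 ranged over 5.21-fold, from H929 DMSO through JJN3 DMSO and JJN3 THZ1 to H929 THZ1, and all neighbouring pairs passed the adjusted p, the first of them not without JJN3 DMSO replicate 1 (-0.29, edgeR adjusted p = 0.0593). SNHG15 had the narrowest range of the 10, 1.47-fold from 38.1 ± 1.37 CPM in JJN3 THZ1 to the libraries labelled H929 THZ1. Its H929 DMSO, JJN3 DMSO and H929 THZ1 groups, in that order, had no neighbours that passed the adjusted p. The libraries of JJN3 DMSO and H929 THZ1 did not overlap (edgeR adjusted p = 0.158).

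For SNHG6 the order was JJN3 THZ1, JJN3 DMSO, H929 THZ1 and H929 DMSO, and JJN3 DMSO and H929 THZ1 could not be separated (a log2 difference of 0.00143 ± 0.0904). GAS5 was highest in JJN3 DMSO, and its other 3 groups, H929 THZ1, H929 DMSO and JJN3 THZ1 in that order, had no neighbours that passed the test. JJN3 THZ1 against H929 THZ1, which are not neighbours, gave -0.26 ± 0.108 on the log2 scale (edgeR adjusted p = 0.0413), under the fold limit. The GAS5 libraries of H929 DMSO and JJN3 THZ1 did not overlap. ZFAS1 was higher in both JJN3 groups than in both groups labelled H929, and within a line label the test was not passed. Its JJN3 groups overlapped, while those labelled H929 did not. SNHG1 and SNHG16 shared the order JJN3 DMSO, H929 DMSO, JJN3 THZ1 and H929 THZ1. For SNHG1 the groups H929 DMSO and JJN3 THZ1 did not differ beyond their spread, and for SNHG16 the groups JJN3 THZ1 and H929 THZ1 did not. SNHG8 ran from H929 DMSO through JJN3 DMSO and H929 THZ1 to JJN3 THZ1 with each step past the adjusted p and under the fold limit. Its first step was lost without JJN3 DMSO replicate 1 (-0.17 for JJN3 DMSO against H929 DMSO, edgeR adjusted p = 0.354), without the filter on low counts (edgeR adjusted p = 0.128), without either H929 DMSO library and with DESeq2 (adjusted p = 0.0532).

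Per kilobase of exon, JJN3 DMSO had the highest level for SNHG1, 45.4 CPM per kb, followed by GAS5 with 33.5 and SNHG6 with 27.5. Divided by the longest annotated transcript in place of all exons merged, GAS5 (52.5 CPM per kb) was above SNHG1 (47.8), so the order of the genes by level rests on the gene model. Together the 10 genes took 0.0412% to 0.0648% of a library's counts. GAS5 and SNHG1 made up 40.5% to 57.5% of that sum.

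The snoRNAs themselves are shorter than most RNA-seq libraries keep, and few reads fell on them. The lifted GENCODE annotation of hg19 places 6 of them inside their hosts, SNORD78, SNORD12, SNORD12B, SNORD12C, SNORD99 and SNORD1B, which together had 8 to 21 counts per library, against 7614 to 12374 on the 10 host genes. These counts were too few to compare groups, so a change of these 6 snoRNAs was not detectable. The other named snoRNAs of the hosts were not examined singly. All 928 snoRNA features of the count tables together had 571 and 563 counts in JJN3 DMSO and 979 and 742 in JJN3 THZ1. They had 380 and 475 in the libraries labelled H929 DMSO and 453 and 506 in those labelled H929 THZ1. The differences in these sums were not tested. The 3 snoRNAs of ZFAS1 are shown by their first and last 20 bases (hg19, plus strand) as an example of what the introns carry, with the C box TGATGA and the D box CTGA in capitals.
SNORD12C, chr20:47895477-47895565, first bases: gctggtgtaaaTGATGActt
SNORD12C, last bases: gttagttCTGAtacatcggc
SNORD12B, chr20:47896856-47896946, first bases: gctggcatataTGATGActt
SNORD12B, last bases: tttctgtCTGAtatgccagc
SNORD12, chr20:47897220-47897309, first bases: gcctttgcagcTGATGAtac
SNORD12, last bases: gttttgtCTGAtgcattggc

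On the strand of the snoRNA, TGATGA was in the first 20 bases of 58.6% of the 389 SNORD genes in the annotation, and CTGA in the last 20 bases of 80.2%. Over the 8 libraries SNORD12B had 0 to 10 counts, SNORD12 0 to 4 and SNORD12C 0 or 1.

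Genes on the other strand were compared because the strand setting of the authors' counting is not given in the sources used here, so reads of a host and of an opposite gene in shared bases cannot be told apart. By the lifted GENCODE models, the exons of SNHG6 shared 58.9% of their bases with another counted gene. Those of ZFAS1 shared 38.6%, SNHG8 37.6%, SNHG7 30.3% and GAS5 9.06%. SNHG5 shared 13.2%, all of it with genes on its own strand. SNHG12 shared 0.188%, and SNHG1, SNHG15 and SNHG16 shared none. These models lack most of the named snoRNAs, so bases shared with those were not counted. MCMDC2, which overlaps SNHG6 and encodes a meiotic member of the MCM family, had 15, 12, 43 and 48 counts in JJN3 DMSO and THZ1, against 1294 to 1771 for SNHG6. It rose with SNHG6, with a log2 fold change of 1.94 ± 0.324 (edgeR adjusted p = 0.000401), and the part of shared reads in this was not tested.

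SNHG12 overlaps the end of TRNAU1AP, a factor of selenocysteine incorporation. TRNAU1AP fell in JJN3 (DMSO libraries at 777 and 824 counts, treated ones at 357 and 395, log2 fold change -0.90 ± 0.0970, edgeR adjusted p = 1.90e-05). Under the H929 label, where SNHG12 was at -2.39, TRNAU1AP was at 0.37 ± 0.0970 (edgeR adjusted p = 0.00256), under the limit. GAS5-AS1, antisense within GAS5, rose from 5 and 5 to 38 and 33 counts in JJN3, a log2 fold change of 2.99 ± 0.418 (edgeR adjusted p = 0.000113), while GAS5 fell. PRSS12, a protease gene that overlaps SNHG8, rose in JJN3 from 6 and 8 to 17 and 20 counts (1.58 ± 0.430, edgeR adjusted p = 0.00849), while SNHG8 fell. FAM69B, opposite SNHG7, was lower under both labels, by log2 fold changes of -0.62 ± 0.242 (edgeR adjusted p = 0.0453) and -3.19 ± 0.270 (edgeR adjusted p = 1.89e-08).

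For 3 of the hosts a tested partner starts within 1 kb and runs the other way. SLC3A2, the heavy chain of an amino acid transporter, starts 51 bp from SNHG1 and had log2 fold changes of -0.35 ± 0.0797 in JJN3 and -0.29 ± 0.0663 under the H929 label, both under the limit, where SNHG1 had -0.47 and -0.88. ZNFX1, a helicase gene 248 bp from the start of ZFAS1, had -0.32 ± 0.0893 in JJN3 and was higher under the H929 label (0.96 ± 0.0894, edgeR adjusted p = 6.23e-08), where ZFAS1 had 0.05 and 0.13. ZBTB37, 800 bp from the start of GAS5, had -0.43 ± 0.140 and 0.38 ± 0.130.

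**Figure D3:**
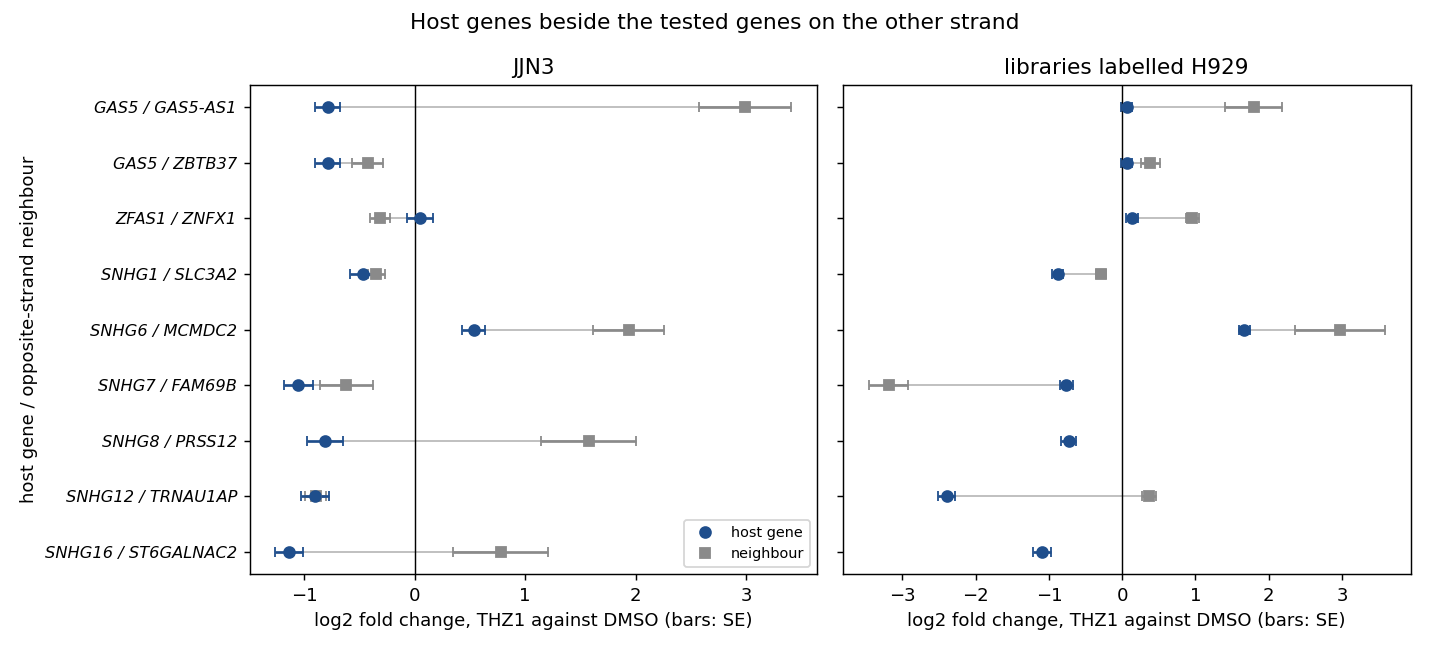
Log2 fold change of THZ1 against DMSO with its standard error (horizontal axis) for each host gene (circles) and a tested gene on the other strand (squares), JJN3 at left and the H929 label at right. SNHG12 and TRNAU1AP were at -0.91 and -0.90 in JJN3 and at -2.39 and 0.37 under the H929 label. PRSS12 and ST6GALNAC2 had too few counts for a test under that label.

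The other noncoding snoRNA hosts formed a list of 19 symbols, of which 14 matched a gene and 12 passed the filter in JJN3. Of these 12, 5 were lower (SNHG18, SNHG17, SNHG3, DANCR and SNHG14) and 3 were higher (SNHG9, SNHG11 and SNHG20), beside 21.3% and 20.6% of all genes, with a median of -0.22. SNHG17 counts dropped from 1483 and 1631 to 595 and 666 after THZ1 (log2 fold change -1.11 ± 0.0870, edgeR adjusted p = 2.60e-06), and SNHG3 from 894 and 953 to 375 and 401 (-1.06 ± 0.0948, edgeR adjusted p = 5.81e-06). SNHG9 rose from 145 and 145 to 311 and 269 counts (1.20 ± 0.154, edgeR adjusted p = 6.49e-05). In the libraries labelled H929, 4 of 11 were lower and 4 higher, with a median of -0.07. SNHG17, SNHG3 and DANCR were lower and SNHG9 and SNHG11 higher under both labels. SNHG14, a long imprinted transcript, was at -0.67 in JJN3, while under the H929 label its DMSO libraries held 0 and 26 counts and its THZ1 libraries 1086 and 1171.

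**Figure D4:**
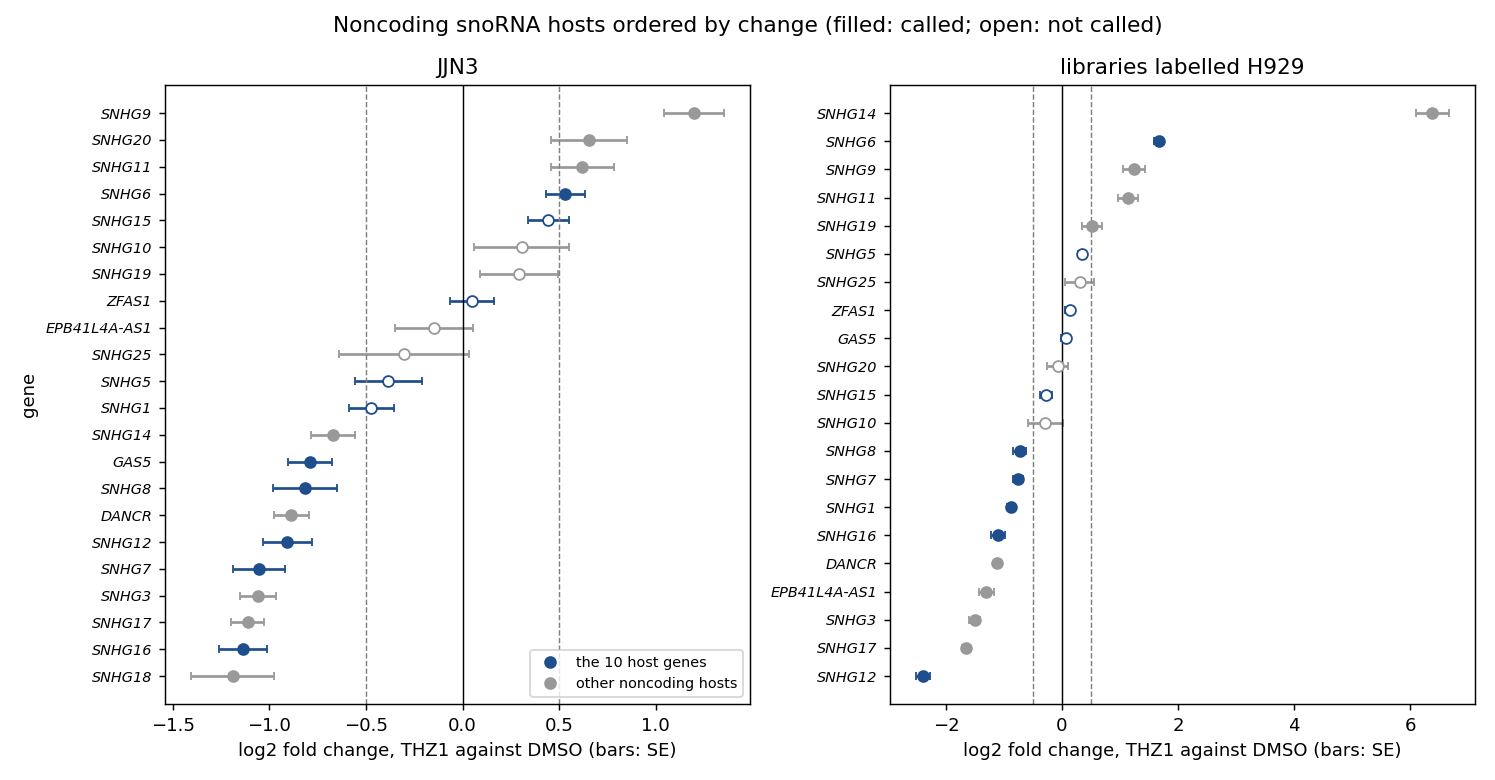
Noncoding snoRNA hosts that passed the filter, ordered by the log2 fold change of THZ1 against DMSO (horizontal axis, standard error as bars), JJN3 at left and the H929 label at right, with the 10 host genes in blue, the other hosts in grey, called genes filled, and dashed lines at the limits of -0.5 and 0.5. The blue points ran from -1.14 to 0.53 in JJN3 and from -2.39 to 1.67 under the H929 label, within the range of the grey ones in JJN3.

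Protein-coding genes with a nested snoRNA had medians nearer to 0 in JJN3. Nested here means lying inside the gene on either strand, so not all of these genes need be hosts. MCMDC2, which overlaps SNHG6 on the other strand, is among them. Of the 29 ribosomal protein genes with a nested snoRNA, 2 were lower (RPL23 and RPL17) and 3 higher in JJN3, among them RPL39 (0.74) and RPLP2 (0.61), with a median of 0.11. Of the 55 tested ribosomal protein genes without one, 7 were lower and 7 higher, with a median of -0.02. RPS26 (-0.89) and RPL36AL (-0.86) were the lowest and RPS10 (0.84) the highest of those called and well expressed. Of 201 other protein-coding genes with a nested snoRNA, 45 were lower and 39 higher, with a median of 0.01. Over all genes 21.3% were lower and 20.6% higher. The shares were 6.90% and 10.3% for ribosomal protein genes with a snoRNA, and 12.7% and 12.7% for those without. For the other protein-coding genes they were 22.4% and 19.4%. The chaperone gene HSPA8, which went from 109992 and 117113 to 35951 and 38131 counts (-1.42), and C11orf48 (-1.88) fell the most among those well expressed, and the kinase gene AAK1 (3.43) and the integrin gene ITGB1 (1.52) rose the most.

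Under the H929 label, 9 of the 29 ribosomal protein genes with a snoRNA were lower and 1 was higher (median -0.23), with RPS2 (-1.47) and RPSA (-1.26) lowest and RPS13 (0.76) higher. Of the 56 without one, 24 were lower, led by RPS23 (-1.60) and RPL14 (-1.24), and 11 higher, led by RPL9 (1.55) and RPS19 (0.82), with a median of -0.32. Of 209 other protein-coding genes with a nested snoRNA, 96 were lower and 59 higher, with a median of -0.34. Over all genes 32.6% were lower and 33.1% higher. The shares were 31.0% and 3.45% for ribosomal protein genes with a snoRNA, and 42.9% and 19.6% for those without. For the other protein-coding genes they were 45.9% and 28.2%. TNS3 (4599 and 4317 DMSO counts against 13 and 14 after THZ1) and TCF7L2 (321 and 306 against 7 and 9) were lowest, and FZD6 (0 and 36 against 1917 and 2081) and SMOC1 (0 and 6 against 329 and 356) highest.

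Of the 18 proteins that bind snoRNAs and assemble their particles, 4 were lower in JJN3 and the other 14 were not called, with a median of -0.21. The share lower, 22.2%, was near the 21.3% of all genes. RUVBL1, an ATPase of the assembly complex, was at -1.25 ± 0.0851 (edgeR adjusted p = 1.25e-06), and GAR1, a core protein of H/ACA particles, at -0.89 ± 0.0853 (edgeR adjusted p = 8.45e-06). Under the H929 label, 10 of 18 were lower, with RUVBL1 at -1.69 and the pseudouridine synthase gene DKC1 at -1.24, and the other 8 were not called (median -0.62), beside 32.6% of all genes lower.

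Of 16 factors of nonsense-mediated decay, 4 were lower and 2 higher in JJN3, shares of 25.0% and 12.5% beside 21.3% and 20.6% of all genes, with a median of -0.000693. DHX34 (-1.62) and MAGOH (-1.06) were lowest, and the kinase gene SMG1 (0.71) was among the higher. Under the H929 label, 6 were lower and 3 higher (37.5% and 18.8%, beside 32.6% and 33.1% of all genes, median -0.09), and SMG1 was among the lower (-1.32) with DHX34 (-1.50), while SMG6 (1.09) and SMG5 (1.06) were higher. Among 6 regulators of pyrimidine-run mRNAs and growth, EIF4EBP1, which encodes an inhibitor of cap-dependent translation, was lower in JJN3 (-0.80) and the other 5 were not called (median -0.10). Under the H929 label 4 of 6 were lower, among them RPTOR (-1.55) and MTOR (-1.11), with a median of -0.64.

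The genes whose pattern over the 4 groups was nearest to the mean pattern of the 10 were DCAKD, BFAR, DDRGK1, THOC5 and GPN3, taken from 9641 genes. Their root mean square differences from it were 0.0256 to 0.0389 on the log2 scale. The mean pattern itself, in log2 CPM around each gene's own mean, was 0.21 in JJN3 DMSO, -0.29 in JJN3 THZ1, 0.21 in H929 DMSO and -0.14 in H929 THZ1. The differences of the 10 genes from the mean pattern ran from 0.23 for GAS5 and SNHG8 to 0.96 for SNHG6 and 1.01 for SNHG5. Those 5 genes were picked for being nearest, so their smaller differences say nothing about how alike the 10 genes are.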

How the data were processed

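The authors aligned single-end reads to hg19 with STAR 2.5.2a and counted them per Ensembl gene with featureCounts. The deposited unit is raw read counts per gene and library. Columns with the authors' DESeq2 1.12.4 results (fold changes and p-values) were used only to pair gene IDs with symbols. Here counts were fitted with edgeR 4.0.16 (TMM, filterByExpr, quasi-likelihood test, Benjamini-Hochberg over all genes tested) in R 4.3.3, per line label for THZ1 against DMSO, and over all 8 libraries for the interaction and the DMSO groups. A call needed an adjusted p under 0.05 and a log2 fold change beyond 0.5. Alternatives were DESeq2 1.42.0, other scalings and filters, a replicate block and leaving out each library. The fits were also run on simulated counts, whose spread between replicates was fixed rather than taken from these libraries. That run is not used as support for the calls here.

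The members and lists were chosen with earlier results of these data known. Named beside the 10 genes were their overlapping genes and those starting within 1 kb on the other strand, per list and label up to 2 largest called rises and falls among genes whose log2 CPM averaged 3 or more, and the 5 genes nearest in pattern. Some genes that this rule names are not reported here. Other genes of a list named beside a count of 5 or fewer were chosen after their values were seen. Gene models came from GENCODE 44 lifted to hg19, not the authors' annotation, and snoRNA nesting from RefSeq positions without regard to strand. Depth was 17476443 to 19194371 counts per library, so 3 counts equal 0.156 to 0.172 CPM.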

Additional observations from a re-analysis of the deposited data

Results flagged for a closer look

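In 5 of the 10 host genes the response to THZ1 differed between the line labels by the interaction test, beside 53.7% of all genes tested, so their share was near the background. The JJN3 change minus the H929 label change, in log2 units, was -0.86 for GAS5, -0.74 for SNHG5, -1.14 for SNHG6, 1.48 for SNHG12 and 0.71 for SNHG15. The libraries labelled H929 DMSO and H929 THZ1 differed in light chain, FGFR3 and MAF, so for these 5 genes a difference in response and a difference in the cells cannot be told apart. Groups of 2 libraries were too small for a test of single libraries that stand apart.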

How the results depend on the processing

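With a limit of 1 on the log2 fold change, 2 host genes were called in JJN3, 3 in the libraries labelled H929, 2 for the interaction and 3 for JJN3 DMSO against H929 DMSO, in place of 6, 6, 5 and 5. The share of all genes at that limit was not computed, so these counts have no background beside them. With the adjusted p alone, 9 were called for JJN3 DMSO against H929 DMSO, beside 12099 of the 16122 genes tested. All other processing alternatives kept the 4 counts within 1.5 times, and leaving out a library gave 6 to 7 in JJN3, 6 in the libraries labelled H929, 5 to 6 for the interaction and 5 to 6 for the DMSO groups. With total counts in place of TMM the median of all genes in JJN3 moved to -0.10, and ZFAS1 there turned to -0.0566. Values of uncalled genes also changed sign when 1 library was left out, which gave -0.14 to 0.22 for ZFAS1 in JJN3, -0.0405 to 0.18 for GAS5 under the H929 label, and, for the interaction, -0.33 to 0.0850 for SNHG8, -0.18 to 0.0419 for SNHG16 and -0.30 to 0.0546 for ZFAS1, and -0.25 to 0.0550 for SNHG15 between the DMSO groups. Same-numbered libraries of the 2 treatments did not deviate together (r = -0.0143 in JJN3 and -0.0328 under the H929 label), so they share only a number. The fit with the replicate block called 6, 6, 5 and 6 host genes, the added one being SNHG1 between the DMSO groups (0.51).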
